A study of Mus musculus with 45 samples.

Results

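The genes described here are 10 genes of the NRF2 antioxidant response in mouse tumour cells: Nfe2l2, Keap1, Nqo1, Hmox1, Gclc, Gclm, Txnrd1, Srxn1, Gsr and Mgst1. They were taken by symbol from the expression tables, where each matched exactly 1 of the 55335 genes. The study measured mRNA by RNA sequencing in CT26, a mouse colon carcinoma line, and Hepa1-6, a mouse liver tumour line, to study SOAT1, the enzyme sterol O-acyltransferase 1 that esterifies cholesterol. In the drug experiment, unmodified cells of each line were exposed for 48 hours to stk, a compound known here by that label alone, or to DMSO, the solvent control. In the knockdown experiment, CT26 lines that each carried a Soat1 hairpin (sh1, sh2 or sh3) were set against a CT26 line with a hairpin against luciferase (shLucif), 24 hours after seeding. Hepa1-6 cells with a scrambled hairpin were set against Hepa1-6 cells labelled shLucif. Each of these 10 groups had 3 libraries. Of the 6 labelled stk samples of either line, 3 were used here, and the Soat1 hairpins of Hepa1-6 were not analysed here. Nothing in the labels says that the libraries of a group came from separate cultures, so p-values measure the spread between libraries, which may be technical. Each knockdown group is a line made with 1 hairpin, so an effect of the hairpin and of that line's history cannot be told apart.

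NRF2, the product of Nfe2l2, is a transcription factor that switches on genes for glutathione synthesis, thioredoxin recycling and detoxification. In unstressed cells KEAP1, the adaptor of a CUL3 ubiquitin ligase, hands NRF2 to the proteasome, and oxidants or electrophiles that modify KEAP1 cysteines let NRF2 accumulate. NRF2 then pairs with small MAF proteins and binds antioxidant response elements, sites that BACH1 can occupy as a repressor, best known at Hmox1. Control acts mainly on the NRF2 protein, so the level of Nfe2l2 mRNA is not a readout of NRF2 activity. Tumours of liver and other tissues can carry an active NRF2 pathway.

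Levels are given in FPKM, fragments scaled to transcript length and to library size, which can be compared between genes. Read totals are not given with FPKM, so depth was read only as relative depth from the lowest FPKM steps, which ran from 0.924 to 1.16 for the drug experiment and from 0.641 to 1.15 for the knockdown experiment, lowest in Hepa1-6 shLucif library 1. Soat1 was at 3.23 to 3.29 FPKM in sh1, 3.41 to 3.55 in sh2 and 2.52 to 2.71 in sh3, against 19.7 to 20.2 FPKM in CT26 shLucif. The lines were checked by marker genes. The Hepa1-6 libraries with scramble, stk or DMSO held the liver genes Alb, Afp and Hnf4a, while the hepatocyte markers Apoa1, Ttr and Apoh averaged under 1 FPKM. CT26 libraries lacked the epithelial genes Epcam, Vil1 and Cdh1, which were at or near 0. They held the intestinal keratin gene Krt20, which does not set them apart, since it was at 20.8 to 21.5 FPKM in CT26 with shLucif and at 97.8 to 100.8 FPKM in Hepa1-6 with scramble. Summed markers of leukocytes (at most 1.92 FPKM) and of endothelium (at most 0.522 FPKM) were low in all 10 groups. Summed fibroblast markers were not low, at 43.2 to 266.5 FPKM. They were mainly Col1a1 and Col1a2 in CT26, and Dcn in Hepa1-6 with scramble, stk or DMSO. Colon epithelium markers summed to 1856 to 1912 FPKM in Hepa1-6 with scramble, against 24.2 to 24.3 FPKM in CT26 with shLucif.

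The 3 libraries labelled Hepa1-6 shLucif stood apart from the other Hepa1-6 libraries. Alb was at 123 to 143 FPKM with scramble, against 1.33 to 1.78 FPKM in the libraries labelled Hepa1-6 shLucif. It was at 156 to 164 FPKM in the separately normalised DMSO libraries of Hepa1-6. Col1a2, a collagen gene that CT26 cells express at 90.5 to 91.1 FPKM with shLucif, was at 0.0174 to 0.0575 FPKM with scramble, against 14.26 to 16.03 FPKM in the libraries labelled Hepa1-6 shLucif. Soat1 was at 0.0977 to 0.182 FPKM with scramble and at 12.7 to 13.6 FPKM in the libraries labelled Hepa1-6 shLucif. The comparison of scramble with shLucif in Hepa1-6 therefore sets libraries of unlike marker content side by side. Without these 3 libraries the scramble group has no control, so no value without them exists.

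**Figure D1:**
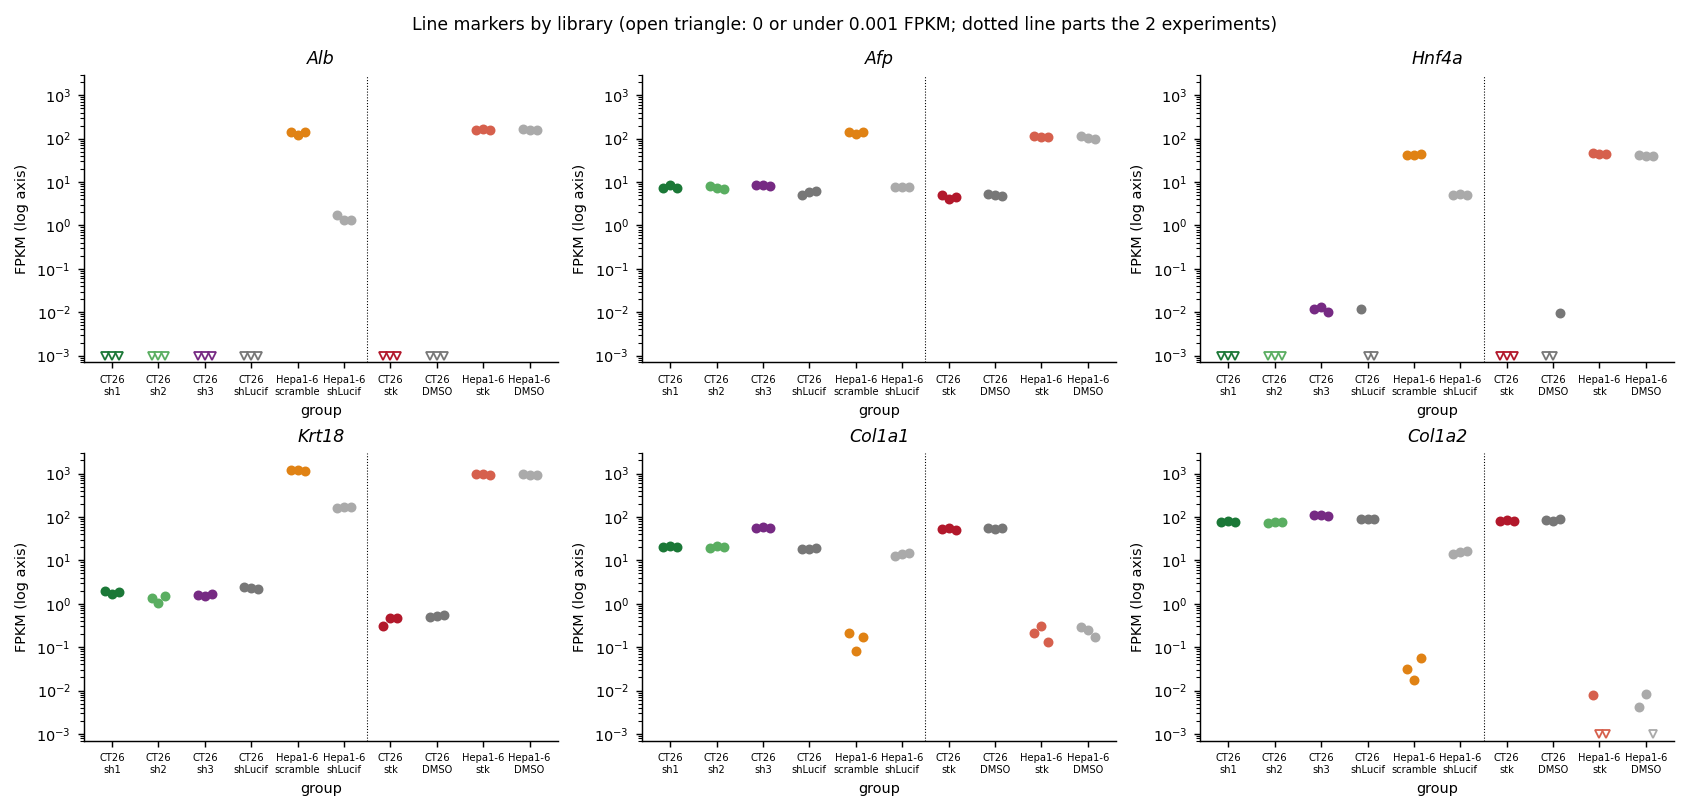
FPKM (log axis) of 6 line markers in each library of the 10 groups, with open triangles for values of 0 or under 0.001 FPKM; the dotted line parts the knockdown experiment (left) from the drug experiment. The Hepa1-6 scramble libraries and the 3 labelled Hepa1-6 shLucif lie apart in all 6 markers, with Alb at 123 to 143 FPKM with scramble against 1.33 to 1.78 FPKM in those labelled shLucif.

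Stretches before the start site are shown for Srxn1, the member with the highest ratio of CT26 to Hepa1-6, for Mgst1, which was at or above 2 FPKM in Hepa1-6 alone, and for Txnrd1, which differed between Soat1 hairpins. They come from RefSeq on GRCm38.p6, run 5′ to 3′ on the strand of the gene and end at the base before the start site. Windows were found for 7 of the 10 members, with no entry for Hmox1, Gclc and Gsr. Capitals mark TGACNNNGC, the core of the antioxidant response element, and TGANTCA, the related AP-1-like core, each searched on both strands.
Srxn1, chr2:152105274-152105523, plus strand: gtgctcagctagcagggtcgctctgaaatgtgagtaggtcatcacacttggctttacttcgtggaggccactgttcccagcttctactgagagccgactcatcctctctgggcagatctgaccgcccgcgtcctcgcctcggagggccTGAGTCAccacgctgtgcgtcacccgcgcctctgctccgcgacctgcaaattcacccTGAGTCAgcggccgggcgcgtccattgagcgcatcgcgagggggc
Txnrd1, chr10:82858956-82859205, plus strand: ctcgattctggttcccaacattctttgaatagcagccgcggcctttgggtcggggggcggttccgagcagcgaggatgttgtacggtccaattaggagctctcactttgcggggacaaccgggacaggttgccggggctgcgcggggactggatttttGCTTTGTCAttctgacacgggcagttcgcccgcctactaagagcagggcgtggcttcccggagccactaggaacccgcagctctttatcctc
Mgst1, chr6:138140277-138140526, plus strand: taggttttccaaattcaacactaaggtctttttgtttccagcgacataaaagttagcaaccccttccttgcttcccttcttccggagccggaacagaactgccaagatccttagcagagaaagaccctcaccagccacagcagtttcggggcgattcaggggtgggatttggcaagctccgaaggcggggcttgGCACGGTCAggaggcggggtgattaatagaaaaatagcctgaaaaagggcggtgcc
The Srxn1 stretch holds the AP-1-like core TGAGTCA at 102 and again at 45 bases before the start site, and a further match to TGACNNNGC lies 28 bases past the start. The Txnrd1 and Mgst1 stretches each hold the antioxidant core once, read on the opposite strand. They are 1 of 3 RefSeq start regions of Txnrd1 and 1 of 2 of Mgst1, in each case the one with a match. The windows of the other start regions of these genes, and those of Nqo1 and Keap1, held neither motif. Over windows of 300 bases (250 before and 50 after the start), TGACNNNGC was present in 5 of 10 member windows and in 12.4% of 32851 windows of all genes. TGANTCA was present in 1 of 10 member windows and in 7.81% of all windows. No stretch shown holds both motifs, and a match is a description of letters, not of a bound site.

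The members differed widely in level and in steadiness between libraries. Nfe2l2, Gclc, Txnrd1 and Gsr were even within groups, with a median coefficient of variation over the 10 groups of 2.9%, 3.19%, 3.18% and 2.75%. Srxn1 and Gclm were uneven in some groups, where the coefficient of variation reached 44.7% and 50.6%. Mgst1 was under 0.5 FPKM in every CT26 library, so it was not tested within CT26.

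Between the unmodified lines with DMSO, 6 members were higher in CT26 than in Hepa1-6 and 2 were lower, among 10 tested. Of all 12822 genes tested, 38.5% were higher and 38.4% were lower in CT26, so these counts are to be read against lines that differed in most genes. The median log2 fold change was 0.32 over the 10 members and -0.01 over all genes tested. Of the 2 lower members, Mgst1 passed the filter on low values only through Hepa1-6, so its call was bound to appear and adds nothing to the count. Among the other members the largest difference was in Srxn1, which was higher in CT26. The control hairpin lines did not repeat every direction of these calls. Means in CT26 shLucif and Hepa1-6 scramble were 17.7 and 27.6 FPKM for Gclc, 40.2 and 46.7 for Hmox1, and 35.35 and 38.01 for Txnrd1. Keap1 was at 8.26 and 8.03 FPKM with overlap. Nqo1 (5.92 and 1.825), Srxn1 (12.0 and 9.29, with overlap), Gsr (16.2 and 43.7) and Mgst1 (0.239 and 7.70) kept the direction. These means were not tested between the lines.

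Nfe2l2 (ENSMUSG00000015839, chr2:75675513-75704641 on GRCm38, minus strand), which codes NRF2, had 48.1, 49.3 and 49.1 FPKM in CT26 DMSO libraries, against 49.1, 49.2 and 49.8 FPKM in Hepa1-6 DMSO libraries. The groups overlapped, and the difference was -0.02 on the log2 scale of FPKM + 1 (95% interval -0.09 to 0.06, limma adjusted p = 0.7). Keap1 (ENSMUSG00000003308, chr9:21229730-21239361, minus strand), its inhibitor, had 10.61, 12.57 and 12.97 FPKM in CT26 DMSO libraries, against 5.87, 6.85 and 5.77 FPKM in Hepa1-6 DMSO libraries. Every CT26 library lay above every Hepa1-6 library, with a log2 fold change of 0.86 (SE 0.082, limma adjusted p = 1.98e-06).

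Among the glutathione genes, Gclc (ENSMUSG00000032350, chr9:77754535-77794485, plus strand) codes the catalytic subunit of glutamate-cysteine ligase, the first step of glutathione synthesis. It had 26.1, 26.3 and 24.8 FPKM in CT26 DMSO libraries, against 19.9, 18.7 and 20.0 FPKM in Hepa1-6 DMSO libraries. The groups did not overlap, and the log2 fold change was 0.38 (SE 0.0518, limma adjusted p = 4.19e-05). Gclm (ENSMUSG00000028124, chr3:122245557-122270732, plus strand), the modifier subunit of that enzyme, had 14.1, 14.1 and 11.8 FPKM in CT26 DMSO libraries, against 12.3, 15.9 and 6.55 FPKM in Hepa1-6 DMSO libraries. The groups overlapped because the Hepa1-6 libraries spread widely, and the log2 difference of 0.26 (95% interval -0.25 to 0.77) had a limma adjusted p of 0.326. Without Hepa1-6 DMSO library 2 it was 0.51 and passed the threshold (limma adjusted p = 0.0408), and without library 3, the low one, it turned to -0.07. Gsr (ENSMUSG00000031584, chr8:33652523-33698163, plus strand), glutathione reductase, which restores reduced glutathione with NADPH, ran the other way. It had 36.0, 37.5 and 35.3 FPKM in CT26 DMSO libraries, against 43.5, 45.1 and 45.1 FPKM in Hepa1-6 DMSO libraries. All CT26 libraries were lower, with a log2 fold change of -0.29 (SE 0.031, limma adjusted p = 5.55e-06).

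In the thioredoxin arm, Txnrd1 (ENSMUSG00000020250, chr10:82833951-82897712, plus strand), cytosolic thioredoxin reductase, had 52.5, 54.3 and 48.5 FPKM in CT26 DMSO libraries, against 43.0, 46.2 and 45.5 FPKM in Hepa1-6 DMSO libraries. The groups did not overlap, and the log2 fold change was 0.20 (SE 0.0528, limma adjusted p = 0.00489). Srxn1 (ENSMUSG00000032802, chr2:152105516-152111376, plus strand) codes sulfiredoxin, which repairs over-oxidised peroxiredoxins. It had 44.9, 43.1 and 46.0 FPKM in CT26 DMSO libraries, against 8.43, 8.18 and 9.25 FPKM in Hepa1-6 DMSO libraries. Its mean was 5.19 times as high in CT26, a log2 fold change of 2.25 (SE 0.219, limma adjusted p = 2.51e-06).

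Nqo1 (ENSMUSG00000003849, chr8:107388225-107403206, minus strand), a quinone reductase and the customary reporter of NRF2, had 7.42, 9.63 and 7.21 FPKM in CT26 DMSO libraries, against 2.52, 2.06 and 2.13 FPKM in Hepa1-6 DMSO libraries. The CT26 mean was 3.62 times the Hepa1-6 mean (log2 fold change 1.48, SE 0.128, limma adjusted p = 8.53e-07). Hmox1 (ENSMUSG00000005413, chr8:75093621-75100589, plus strand), heme oxygenase 1, had 30.5, 29.4 and 27.1 FPKM in CT26 DMSO libraries, against 18.7, 16.4 and 17.1 FPKM in Hepa1-6 DMSO libraries. The groups did not overlap, with a log2 fold change of 0.70 (SE 0.0737, limma adjusted p = 4.66e-06). Mgst1 (ENSMUSG00000008540, chr6:138140316-138156755, plus strand), a membrane-bound glutathione transferase, had 0.0735, 0.369 and 0.218 FPKM in CT26 DMSO libraries, against 4.10, 3.96 and 4.97 FPKM in Hepa1-6 DMSO libraries. Its log2 fold change was -2.13 (SE 0.115, limma adjusted p = 1.36e-08) and -3.902 with a pseudocount of 0.1 in place of 1.

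The other antioxidant lists also divided between the unmodified lines. Of 7 genes of heme and iron handling, 4 were higher and 3 lower in CT26. The higher ones included Slc48a1, a heme transporter gene (1.37, limma adjusted p = 3.09e-10), and the ferritin genes Ftl1 (1.28, limma adjusted p = 1.46e-09) and Fth1 (0.92, limma adjusted p = 8.07e-10). Of 7 tested conjugation genes, 2 were higher and 5 lower, but 2 of the lower ones, the carbonyl reductase genes Cbr1 and Cbr3, passed the filter only through Hepa1-6 and were bound to be lower. Ptgr1, prostaglandin reductase 1, which was tested within each line, was lower too (-2.40, limma adjusted p = 1.33e-09). Thioredoxin and peroxiredoxin genes gave 6 higher and 3 lower of 11, glutathione genes 6 and 5 of 14 tested (of which Gstm4, a glutathione transferase gene, passed only through Hepa1-6), NRF2 partners 2 and 6 of 10, NADPH supply 2 and 2 of 6, and superoxide and peroxide enzymes 1 and 2 of 3.

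**Figure D2:**
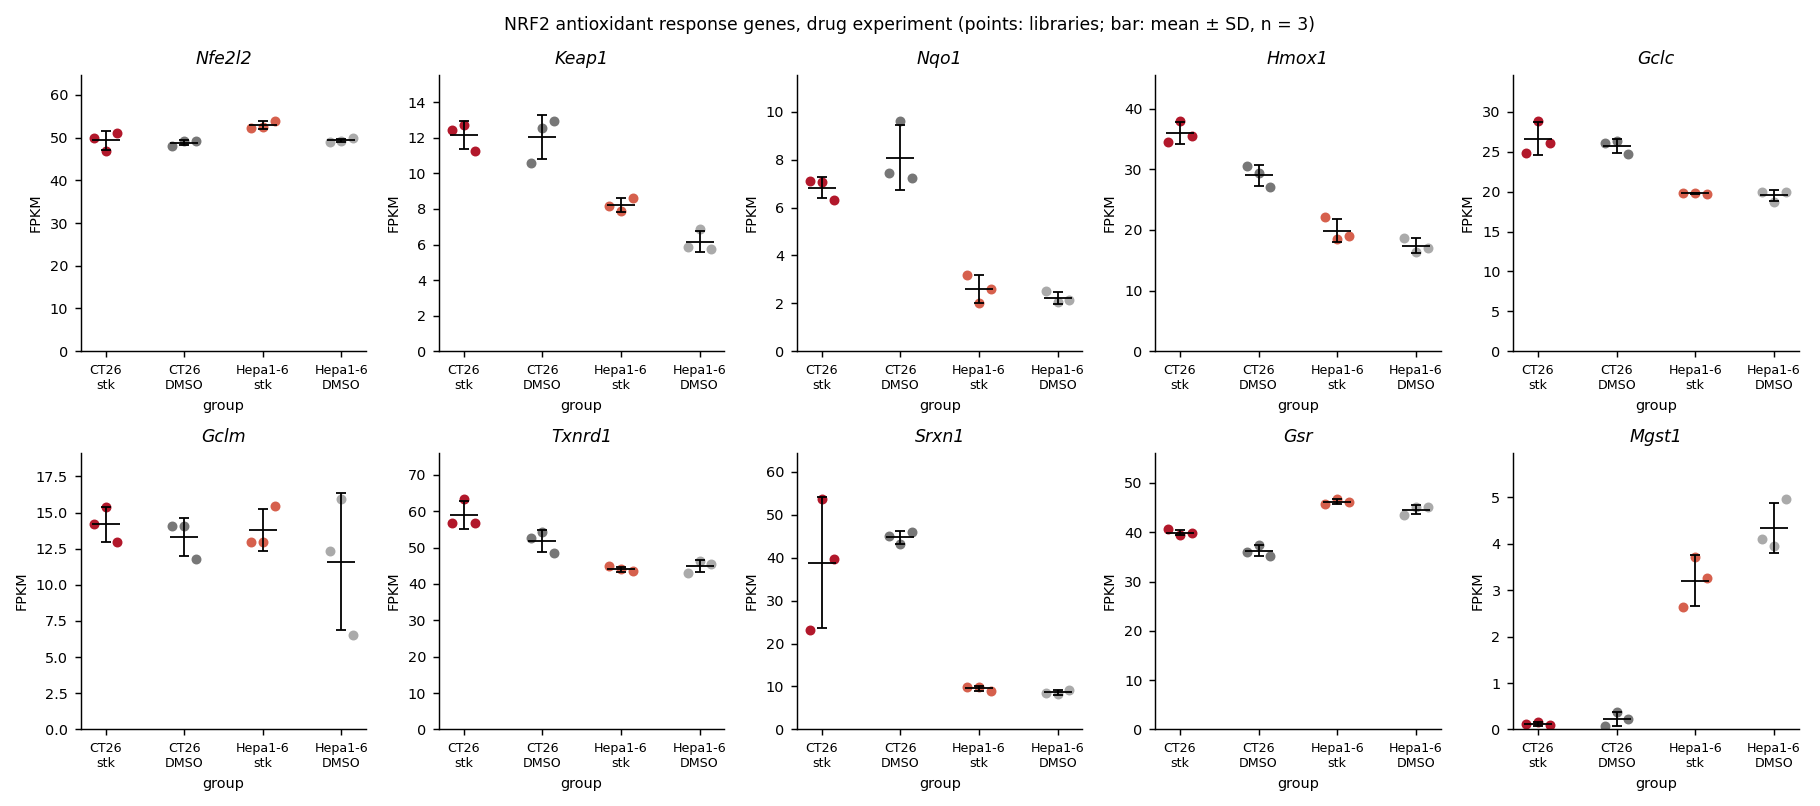
FPKM of the 10 members in each library of the drug experiment, by group; bars give the mean ± SD of 3 libraries. Srxn1 lies at 43.1 to 46.0 FPKM in CT26 DMSO libraries against 8.18 to 9.25 FPKM in Hepa1-6 DMSO libraries, while stk and DMSO lie close together for most members.

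With stk, no member passed the threshold in either line. In CT26, 0 of the 9 tested members were called, beside 0.132% of 11358 genes called higher and 0.616% called lower. In Hepa1-6, 0 of 10 members were called, beside 0.683% of 11426 genes called higher and 0.849% called lower. At these rates a list of this length would seldom hold a call, so the absence of calls says little about the members. At an unadjusted limma p under 0.05, 1656 genes in CT26 and 2714 in Hepa1-6 passed. The median log2 fold change was 0.05 over the 9 tested members in CT26 (-0.01 over all genes) and 0.12 over the 10 in Hepa1-6 (0.00 over all genes, rounded from 0.003).

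The values nearest the threshold differed by line. How many of all genes showed no overlap between groups was not computed. A lack of overlap is therefore a description of the 3 libraries per group, here and in the other comparisons. Hmox1 had 34.5, 38.0 and 35.4 FPKM in CT26 stk libraries, against 30.5, 29.4 and 27.1 FPKM in CT26 DMSO libraries. All stk libraries lay above all DMSO libraries, and the log2 fold change of 0.30 (SE 0.0583) had a limma adjusted p of 0.0891. Gsr had 40.6, 39.5 and 39.8 FPKM in CT26 stk libraries, against 36.0, 37.5 and 35.3 FPKM in CT26 DMSO libraries (log2 fold change 0.14, SE 0.0362, limma adjusted p = 0.171). Txnrd1 had 56.7, 63.4 and 56.8 FPKM in CT26 stk libraries, against 52.5, 54.3 and 48.5 FPKM in CT26 DMSO libraries (log2 fold change 0.18, SE 0.061, limma adjusted p = 0.252). The stk libraries were higher without overlap in both genes, by amounts that did not pass the threshold. Nqo1 lay on the other side, with 7.10, 7.06 and 6.33 FPKM in CT26 stk libraries against 7.42, 9.63 and 7.21 FPKM in CT26 DMSO libraries. Its log2 difference was -0.21 (95% interval -0.46 to 0.05, limma adjusted p = 0.451).

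In Hepa1-6, Keap1 had 8.16, 7.89 and 8.62 FPKM in stk libraries, against 5.87, 6.85 and 5.77 FPKM in DMSO libraries. The groups did not overlap, and the log2 fold change of 0.37 (SE 0.0725) had a limma adjusted p of 0.0573. It passed the threshold with a minimum of 5 FPKM (limma adjusted p = 0.0426) and with both lines in 1 model (limma adjusted p = 0.0266). Mgst1 had 2.63, 3.72 and 3.25 FPKM in Hepa1-6 stk libraries, against 4.10, 3.96 and 4.97 FPKM in DMSO libraries (log2 fold change -0.35, SE 0.118, limma adjusted p = 0.147). Nfe2l2 had 52.2, 52.6 and 54.0 FPKM in Hepa1-6 stk libraries, against 49.1, 49.2 and 49.8 FPKM in DMSO libraries (log2 fold change 0.10, SE 0.0315, limma adjusted p = 0.134). Both showed no overlap between groups and missed the threshold.

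The remaining values under stk gave intervals that included 0. Srxn1 was the least settled in CT26, with 23.1, 53.6 and 39.7 FPKM in stk libraries against 44.9, 43.1 and 46.0 FPKM in DMSO libraries, so its log2 difference of -0.28 had a 95% interval of -0.93 to 0.37. The low value came from stk library 1, and without it the difference was 0.05. Gclm was the least settled in Hepa1-6, with 12.94, 12.96 and 15.45 FPKM in stk libraries against 12.3, 15.9 and 6.55 FPKM in DMSO libraries (log2 difference 0.30, 95% interval -0.36 to 0.96). Without Hepa1-6 DMSO library 3 it was -0.03. Gclc was bounded tightly, at 0.05 in CT26 (95% interval -0.10 to 0.19) and 0.02 in Hepa1-6 (95% interval -0.08 to 0.12). Nfe2l2 in CT26 was at 50.02, 46.97 and 51.13 FPKM with stk, inside an interval of -0.08 to 0.11 for its log2 difference. Keap1 in CT26 was at 12.5, 12.7 and 11.3 FPKM with stk, with an interval of -0.19 to 0.22. Mgst1 in CT26 was at 0.125, 0.171 and 0.0857 FPKM with stk and was not tested. Hmox1 in Hepa1-6 had 22.1, 18.6 and 18.9 FPKM in stk libraries, against 18.7, 16.4 and 17.1 FPKM in DMSO libraries (log2 difference 0.18, 95% interval -0.01 to 0.37). The stk libraries leaned higher with an overlap. Srxn1 in Hepa1-6 had 9.77, 9.97 and 8.92 FPKM in stk libraries, against 8.43, 8.18 and 9.25 FPKM in DMSO libraries (0.13, 95% interval -0.02 to 0.29). Nqo1 in Hepa1-6 had 3.191, 1.999 and 2.579 FPKM in stk libraries, against 2.52, 2.06 and 2.13 FPKM in DMSO libraries (0.14, 95% interval -0.17 to 0.45). Both overlapped between groups. Txnrd1 (-0.03, 95% interval -0.12 to 0.07) and Gsr (0.05, 95% interval -0.03 to 0.13) in Hepa1-6 were bounded more tightly.

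Whether the stk response differed between CT26 and Hepa1-6 was tested directly, and 0 of 10 members passed, beside 0.109% of 12822 genes called higher and 0.195% called lower (1780 genes at an unadjusted limma p under 0.05). Mgst1, 1 of these 10, had no usable level in CT26, and its value of 0.24 became 0.038 with a pseudocount of 0.1. The median log2 difference of the responses was -0.03 over the members and 0.00 over all genes (rounded from -0.003). Keap1 had the smallest p among the members, with a response lower by 0.35 in CT26 than in Hepa1-6 (log2 difference -0.35, 95% interval -0.61 to -0.10, limma adjusted p = 0.229). Txnrd1 followed, at 0.21 (95% interval 0.04 to 0.38, limma adjusted p = 0.259). For Hmox1 the difference was 0.12 (95% interval -0.11 to 0.36), so the data do not separate its responses in the 2 lines.

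**Figure D3:**
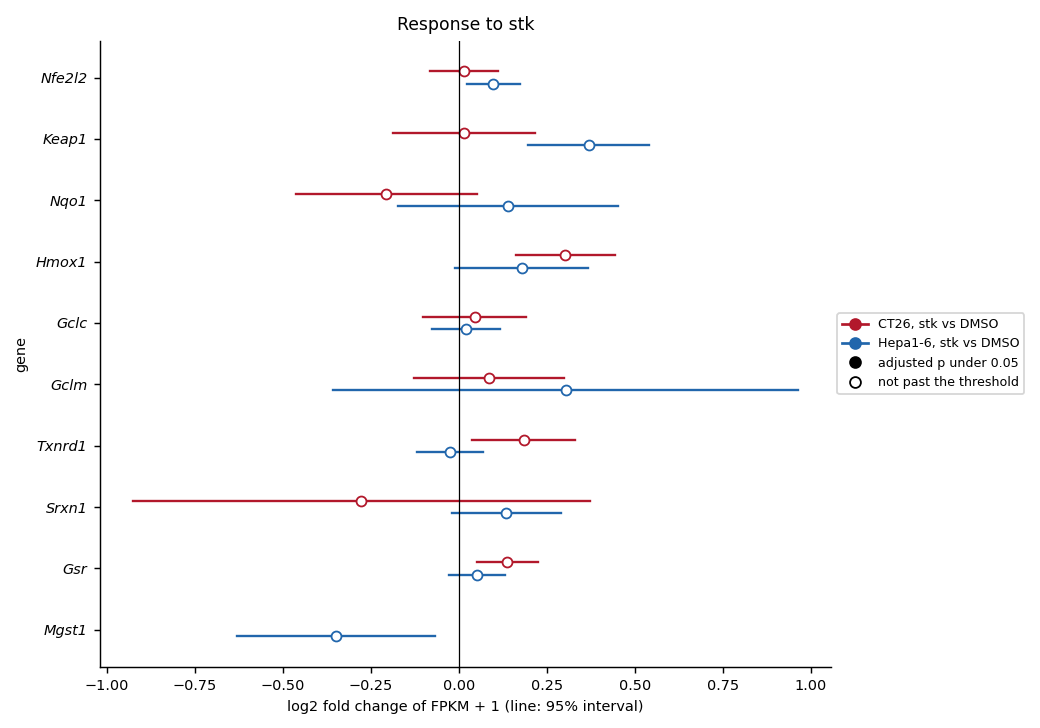
Log2 fold change of FPKM + 1 with stk against DMSO for each tested member in CT26 (red) and Hepa1-6 (blue); lines are 95% intervals and open points did not pass an adjusted p of 0.05. All points are open, and Hmox1 in CT26 (0.30) and Keap1 in Hepa1-6 (0.37) lie farthest above 0 relative to their intervals.

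Of the other antioxidant lists, 63 genes in 7 lists, a single gene was called with stk. Of 17 glutathione genes, 13 were tested in CT26 and 14 in Hepa1-6, and of 9 conjugation genes, 5 and 7. All genes of the other lists were tested. Of all genes, 0.132% were called higher and 0.616% lower in CT26, and 0.683% and 0.849% in Hepa1-6. At these rates so few calls say little about the lists. Me1, malic enzyme 1, which supplies cytosolic NADPH, fell to 20.6 ± 0.564 FPKM in CT26 stk libraries, against 31.0 ± 0.921 FPKM in DMSO libraries (SD, n = 3 each; log2 fold change -0.57, SE 0.0405, limma adjusted p = 0.00845). In Hepa1-6, Me1 was at 76.6 ± 2.19 FPKM with stk and 70.3 ± 1.71 FPKM with DMSO (SD, n = 3 each). The difference between the lines in its response was -0.69 (SE 0.0506, limma adjusted p = 0.000705). Unlike those of the members, the calls of Me1 were not followed under the alternative settings. Counts over all genes with stk were unstable there, with 85 calls in CT26 and 14 with no filter on low values. The lists of NRF2 partners, glutathione, thioredoxin and peroxiredoxin, heme and iron, conjugation, and superoxide and peroxide enzymes had 0 calls in either line.

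In CT26 cells with Soat1 hairpins, Hmox1, Gclc, Txnrd1 and Gsr were higher on the mean of the 3 hairpins than with shLucif, and 0 members were lower, among 9 tested. Of all 11832 genes tested, 23.4% were higher and 19.8% lower, so 4 of 9 is to be read against a line in which many genes moved. The median log2 fold change was 0.23 over the 9 tested members and 0.01 over all genes. The 3 hairpins share their shLucif libraries, so the hairpin values below are given side by side and their likeness is not evidence of its own. With sh1, 3 members were higher and 1 lower, beside 19.1% and 18.7% of all genes. With sh2, 3 were higher and 1 lower, beside 18.9% and 20% of all genes. With sh3, 3 were higher and 1 lower, beside 30.9% and 21.6% of all genes. The share of higher calls among all genes called was 58.8% with sh3 and 54.2% on the mean, and 49.5% and 46.8% after quantile normalization, which changed no call of a member.

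Hmox1, which opens the heme ring and releases iron, carbon monoxide and biliverdin, had 56.3, 59.7 and 54.7 FPKM with sh1, 60.4, 59.3 and 57.2 FPKM with sh2 and 44.7, 42.4 and 46.3 FPKM with sh3, against 39.4, 40.5 and 40.8 FPKM with shLucif. Every hairpin library lay above every shLucif library, and sh3 was the nearest to the control. The log2 fold change was 0.49 with sh1 (SE 0.0437, limma adjusted p = 8.68e-06), 0.54 with sh2 (limma adjusted p = 4.21e-06) and 0.14 with sh3 (limma adjusted p = 0.0194). On the mean of the hairpins it was 0.39 (SE 0.0357, limma adjusted p = 9.73e-06). The call with sh3 was lost without sh3 library 1 (limma adjusted p = 0.0533), sh3 library 3 (0.0712) or shLucif library 1 (0.0654).

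Txnrd1 had 45.1, 43.9 and 45.4 FPKM with sh1, 42.8, 45.0 and 42.9 FPKM with sh2 and 36.6, 36.5 and 37.4 FPKM with sh3, against 35.1, 35.9 and 35.0 FPKM with shLucif. Libraries of sh1 and sh2 lay well above shLucif, and those of sh3 just above it. Its log2 fold change was 0.33 with sh1 (SE 0.0326, limma adjusted p = 1.67e-05), 0.29 with sh2 (limma adjusted p = 4.32e-05) and 0.06 with sh3 (95% interval -0.01 to 0.13, limma adjusted p = 0.159).

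Gclc was called higher with each hairpin. It had 20.1, 20.8 and 21.9 FPKM with sh1, 21.5, 21.3 and 22.6 FPKM with sh2 and 20.8, 20.2 and 21.3 FPKM with sh3, against 18.1, 18.1 and 17.0 FPKM with shLucif. No hairpin library reached down to the shLucif range. The log2 fold change was 0.23 with sh1 (limma adjusted p = 0.002), 0.28 with sh2 (SE 0.044, limma adjusted p = 0.000441) and 0.22 with sh3 (limma adjusted p = 0.00147).

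Gclm, the partner subunit, did not settle. It had 7.65, 2.37 and 5.97 FPKM with sh1, 7.70, 6.05 and 5.91 FPKM with sh2 and 7.63, 12.7 and 7.16 FPKM with sh3, against 6.42, 6.52 and 5.02 FPKM with shLucif. Library 2 of sh1 was low, and without it the log2 difference of sh1 turned to 0.16, beside -0.24. Library 2 of sh3 was high within their groups. On the mean of the hairpins the log2 difference was 0.13 (95% interval -0.42 to 0.67, limma adjusted p = 0.714). With sh3 it was 0.51 (95% interval -0.16 to 1.18, limma adjusted p = 0.184), and it passed without sh1 library 2, which enters through the shared spread (limma adjusted p = 0.0466).

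Gsr had 19.0, 16.7 and 19.3 FPKM with sh1, 17.8, 20.0 and 16.5 FPKM with sh2 and 23.2, 22.1 and 19.0 FPKM with sh3, against 15.6, 15.8 and 17.2 FPKM with shLucif. Only the sh3 libraries all lay above the shLucif libraries. The log2 fold change was 0.38 with sh3 (SE 0.0874, limma adjusted p = 0.00364), 0.17 with sh1 (limma adjusted p = 0.161) and 0.15 with sh2 (limma adjusted p = 0.211). On the mean of the hairpins it was 0.23 (SE 0.0714, limma adjusted p = 0.0223), a call lost without shLucif library 1 (limma adjusted p = 0.0914), without shLucif library 2 (0.0822) and with no filter on low values (0.0587).

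Srxn1 had 16.8, 17.4 and 21.1 FPKM with sh1, 18.1, 21.1 and 16.4 FPKM with sh2 and 29.4, 23.3 and 10.8 FPKM with sh3, against 13.9, 6.54 and 15.6 FPKM with shLucif. The sh1 and sh2 libraries lay above shLucif, but shLucif library 2 and sh3 library 3 were far below the rest of their groups. The log2 difference on the mean of the hairpins was 0.68 (95% interval 0.070 to 1.3) with a limma adjusted p of 0.0691. It passed without sh3 library 3 (0.82, limma adjusted p = 0.0103), without shLucif library 3 (0.90, limma adjusted p = 0.0493) and with all knockdown libraries in 1 model (limma adjusted p = 0.0371). With sh3 alone it was 0.74 (limma adjusted p = 0.0907), and 1.14 without sh3 library 3 (limma adjusted p = 0.00707).

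Nqo1, the quinone reductase gene, had 5.18, 2.73 and 4.35 FPKM with sh1, 3.33, 4.11 and 3.37 FPKM with sh2 and 7.70, 6.50 and 6.82 FPKM with sh3, against 6.323, 5.942 and 5.499 FPKM with shLucif. Libraries of sh1 and sh2 lay below shLucif and those of sh3 above it. The log2 fold change was -0.59 with sh2 (SE 0.153, limma adjusted p = 0.0105) and -0.48 with sh1 (limma adjusted p = 0.0305). The call with sh1 was lost without sh1 library 2 (-0.27, limma adjusted p = 0.0689), without shLucif library 1 (limma adjusted p = 0.0899), without shLucif library 2 (0.0705) and with no filter on low values (0.0853). With sh3 the difference was 0.21 (95% interval -0.13 to 0.55, limma adjusted p = 0.275). On the mean of the hairpins it was -0.29 (limma adjusted p = 0.0876), and it passed without sh1 library 1 (limma adjusted p = 0.0258) or sh1 library 2 (0.0414).

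Nfe2l2 itself had 60.1, 56.5 and 60.5 FPKM with sh1, 54.8, 58.3 and 57.9 FPKM with sh2 and 44.6, 47.0 and 48.0 FPKM with sh3, against 56.6, 58.3 and 55.5 FPKM with shLucif. The sh3 libraries were below all others, a log2 fold change of -0.28 (SE 0.0422, limma adjusted p = 0.00021). With sh1 it was 0.06 (95% interval -0.04 to 0.15) and with sh2 0.01 (95% interval -0.09 to 0.10). Keap1 had 9.41, 8.18 and 8.58 FPKM with sh1, 8.17, 8.27 and 8.34 FPKM with sh2 and 8.59, 8.51 and 8.95 FPKM with sh3, against 8.90, 8.03 and 7.84 FPKM with shLucif. Each hairpin group overlapped with shLucif, and the log2 difference on the mean of the hairpins was 0.05 (95% interval -0.06 to 0.15, limma adjusted p = 0.459). Mgst1 ran from 0.0496 to 0.449 FPKM over the 12 CT26 libraries, below the filter, and was not tested.

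**Figure D4:**
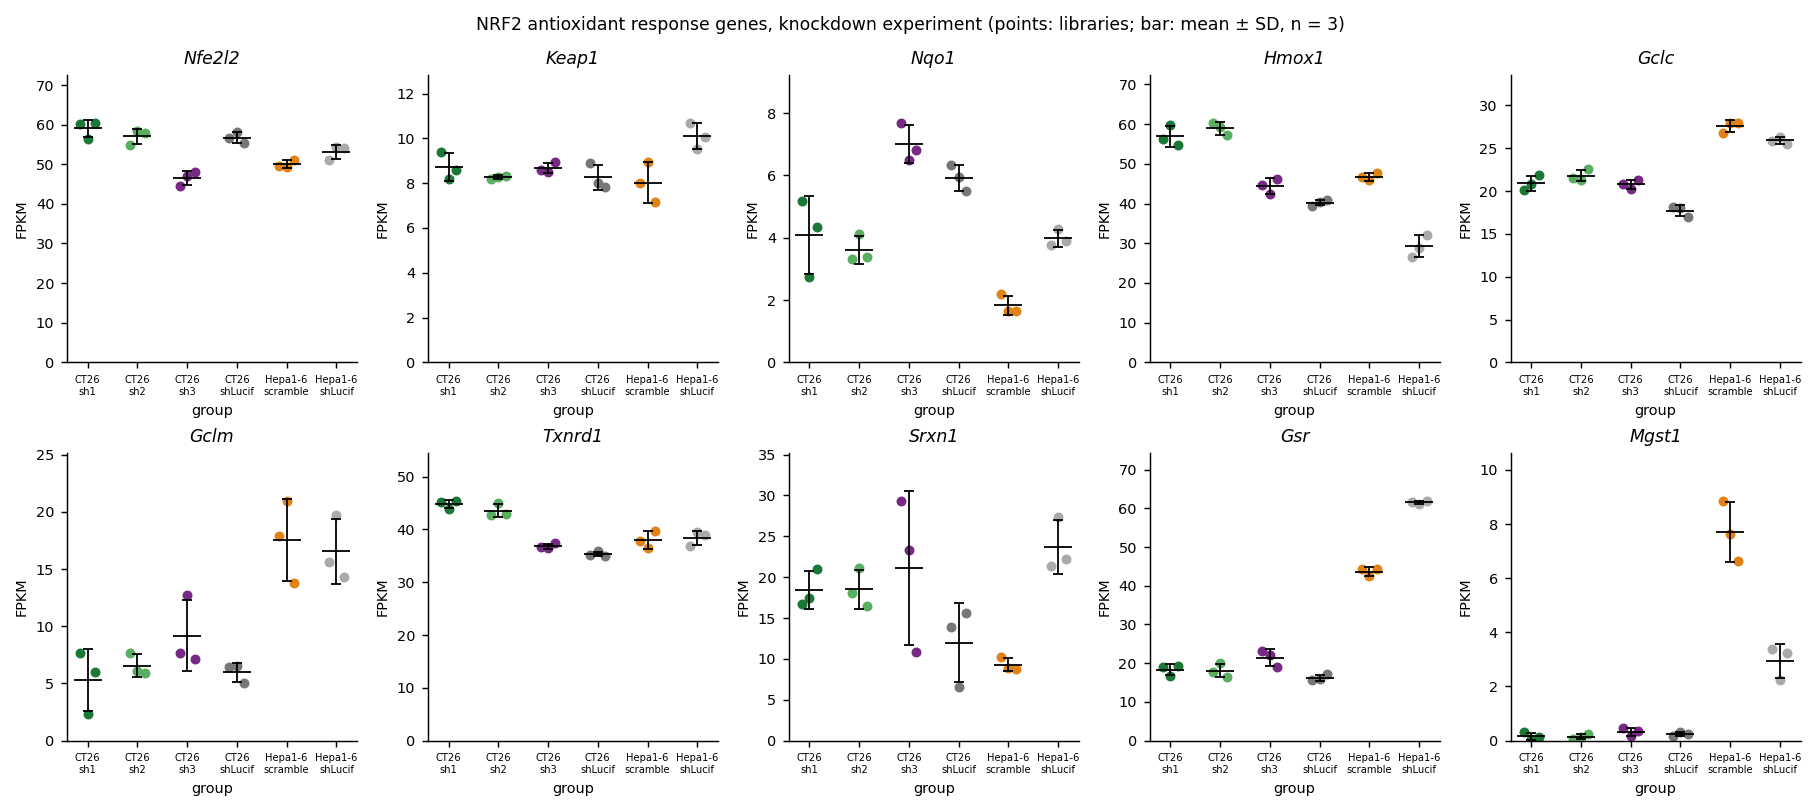
FPKM of the 10 members in each library of the knockdown experiment, by group; bars give the mean ± SD of 3 libraries. Nqo1 lies at 2.73 to 5.18 FPKM with sh1 and 3.33 to 4.11 FPKM with sh2, both below the 5.499 to 6.323 FPKM with shLucif in CT26, and at 6.50 to 7.70 FPKM with sh3.

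Whether sh3 differed from the other hairpins was tested against the mean of sh1 and sh2, which leaves out the shared control. Of 9 tested members, 2 were higher with sh3 and 3 were lower, beside 35.5% of all genes higher and 24.7% lower, so most genes differed between these hairpin lines. The median log2 difference was 0.03 over the 9 tested members and 0.06 over all genes. Nqo1 was higher with sh3 by 0.74 (SE 0.132, limma adjusted p = 0.000534) and Gsr by 0.22 (limma adjusted p = 0.0253). Hmox1 was lower with sh3 by a log2 difference of -0.38 (SE 0.0379, limma adjusted p = 7.2e-06), Nfe2l2 by -0.31 (limma adjusted p = 2.28e-05) and Txnrd1 by -0.26 (limma adjusted p = 1.44e-05). For Gclc the difference was -0.04 (95% interval -0.12 to 0.05) and for Keap1 0.03 (95% interval -0.08 to 0.14). The Gsr call was lost without sh3 library 1 (limma adjusted p = 0.125), sh3 library 2 (0.0905) and with no filter (0.0607). Gclm, at 0.57 (limma adjusted p = 0.0815), passed without sh1 library 1 (0.71, limma adjusted p = 0.0266). Sums over the fibroblast and the colon epithelium markers were also higher with sh3, each carried by few genes. The list of 5 fibroblast markers, of which 3 averaged 1 FPKM or more, summed to 162 to 169 FPKM with sh3. It summed to 93.9 to 105 FPKM over sh1 and sh2 and to 111 to 113 FPKM with shLucif. Col1a1 averaged 56.0 FPKM with sh3, against 20.6 with sh1 and 20.4 with sh2, and Col1a2 108.0 against 77.5 and 74.6. Pdgfra (1.91 against 3.30 and 3.01) and Dcn (0.0932 against 0.382 and 0.448) went the other way and were lower with sh3. The 7 colon epithelium markers summed to 43.1 to 47.4 FPKM with sh3, against 24.6 to 36.0 FPKM over sh1 and sh2 and 24.2 to 24.3 FPKM with shLucif, with Epcam, Vil1 and Cdh1 at or near 0. The part of these markers in the results on the members was not tested.

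**Figure D5:**
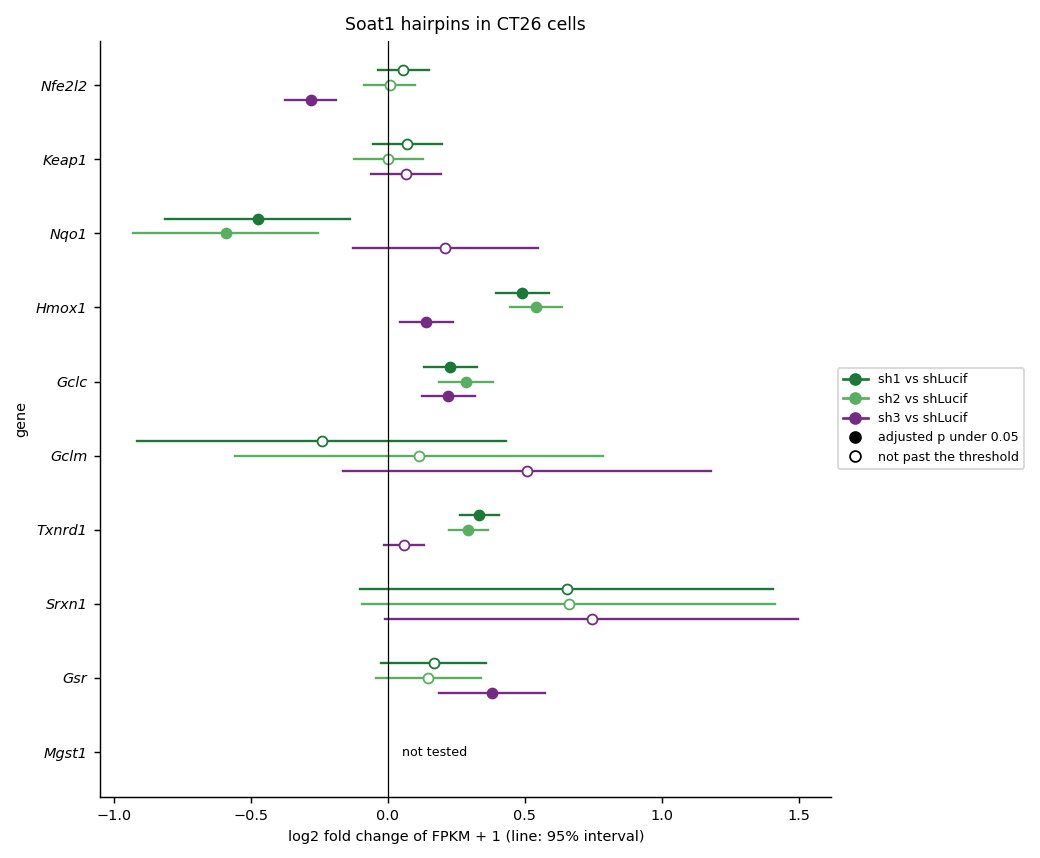
Log2 fold change of FPKM + 1 for each tested member with sh1, sh2 or sh3 against the shared shLucif libraries in CT26; lines are 95% intervals and filled points passed an adjusted p of 0.05. Gclc is filled for all 3 hairpins at 0.22 to 0.28, while Nqo1 is at -0.48 and -0.59 with sh1 and sh2 and at 0.21 with sh3.

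Genes whose level followed that of Nqo1 over the 12 CT26 knockdown libraries were Evl, which codes an actin regulator (Pearson r = 0.957), Tmem106c, a membrane protein (0.956) and Cmbl, a hydrolase (0.95). Evl was at 10.3 ± 1.04 FPKM with sh1, 9.8 ± 0.508 FPKM with sh2 and 16.9 ± 0.47 FPKM with sh3, against 14.4 ± 0.25 FPKM with shLucif (SD, n = 3 each). These correlations are on log2(FPKM + 1) and describe 12 libraries that form 4 groups, so they carry the group differences. Among the members, r with Nqo1 was 0.598 for Gclm and -0.822 for Hmox1. The other members lay between these values.

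The rest of the antioxidant system was described with the 7 lists, as the mean over the 3 Soat1 hairpins of CT26 set against shLucif. Of 6 genes of NADPH supply, 4 were higher and 1 lower, with a median log2 fold change of 0.34 beside 0.01 over all genes. Tkt, transketolase of the pentose phosphate pathway, was at 30.0 ± 1.67 FPKM with sh1, 28.2 ± 0.705 FPKM with sh2 and 27.6 ± 1.11 FPKM with sh3, against 18.2 ± 0.709 FPKM with shLucif (SD, n = 3 each). Its log2 fold change on the mean was 0.62 (SE 0.0399, limma adjusted p = 8.61e-07). Pgd rose by 0.46 (limma adjusted p = 0.00121) and Idh1 by 0.39 (limma adjusted p = 0.000198), both enzymes that make NADPH. The lower gene was Me1, at -0.25 (limma adjusted p = 0.00177). For Me1 the value on the mean came from sh3 (-0.70, limma adjusted p = 3.9e-06), with -0.05 with sh1 and -0.01 with sh2. Pgd passed with sh3 (0.83, limma adjusted p = 5.4e-05) and not with sh1 (0.28, limma adjusted p = 0.0511) or sh2 (0.27, limma adjusted p = 0.0652).

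Of 7 genes of heme and iron handling, 5 were higher and 1 lower, with a median of 0.22. The heme transporter gene Slc48a1 had 90.4 ± 5.0 FPKM with sh1, 83.2 ± 4.24 FPKM with sh2 and 109.4 ± 2.62 FPKM with sh3, against 58.9 ± 1.85 FPKM with shLucif (SD, n = 3 each; log2 fold change on the mean 0.66, limma adjusted p = 5.94e-07). Ftl1, ferritin light chain, rose by 0.30 (limma adjusted p = 4.95e-05), and Blvra, biliverdin reductase A, by 0.29 (limma adjusted p = 0.0013). The lower gene was Fth1, ferritin heavy chain, at -0.17 (limma adjusted p = 0.00311), named after its value was seen. Ftl1 passed with sh1 (0.46) and sh2 (0.53), and was at -0.08 with sh3 (limma adjusted p = 0.118). Blvra did not pass with sh1 (0.17, limma adjusted p = 0.0602).

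Of 13 tested genes of glutathione supply and use (17 listed), 2 were higher and 4 lower, with a median of -0.04. The higher genes were Slc7a11, the cystine importer (0.41, limma adjusted p = 6.56e-05), and Mgst3 (0.50, limma adjusted p = 0.000941). Gsta4, a glutathione transferase, was lower (-0.52, limma adjusted p = 0.00471), though not past the threshold with sh3 (-0.30, limma adjusted p = 0.108). Of 11 thioredoxin and peroxiredoxin genes, 2 were higher and 2 lower: Prdx3 (0.32, limma adjusted p = 2.11e-05) and Txn1 (0.23) rose and Prdx6 (-0.31, limma adjusted p = 0.00655) fell. Txn1 was at 0.05 with sh3 (limma adjusted p = 0.336). Of 10 NRF2 partners and control genes, 3 were higher and 4 lower, among them Mafk, a small MAF partner (0.47, limma adjusted p = 5.13e-06), and Cul3, the ubiquitin ligase scaffold (-0.32, limma adjusted p = 0.00326). The Mafk value came from sh1 and sh2, with 32.16 ± 1.515 FPKM with sh1, 32.0 ± 1.03 FPKM with sh2 and 18.1 ± 0.981 FPKM with sh3, against 18.9 ± 0.303 FPKM with shLucif (SD, n = 3 each). Of 7 tested conjugation genes 2 were higher and 2 lower, and of 3 superoxide and peroxide enzymes Cat, catalase, was higher (0.79, limma adjusted p = 5.06e-06). Glutathione transferase paralogs share sequence, and how the authors' counting divided such reads is not given in the sources used here.

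In Hepa1-6, scramble against the libraries labelled shLucif gave 2 members higher and 4 lower of 10, beside 31.4% of 12055 genes higher and 36.8% lower. These differences stand beside the marker differences described above (7 hepatocyte markers summing to 296 to 331 FPKM with scramble, against 15.3 to 15.9 FPKM in the libraries labelled Hepa1-6 shLucif), and the part of those in the members' values was not tested. The median log2 fold change was -0.05 over the 10 members and -0.04 over all genes.

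Srxn1 had 10.2, 8.88 and 8.81 FPKM with scramble, against 21.4, 27.4 and 22.3 FPKM in the libraries labelled Hepa1-6 shLucif (log2 fold change -1.26, SE 0.102, limma adjusted p = 4.06e-05). Nqo1 had 2.18, 1.65 and 1.65 FPKM with scramble, against 3.77, 4.29 and 3.89 FPKM in the libraries labelled Hepa1-6 shLucif (-0.82, SE 0.0913, limma adjusted p = 0.000205). Both were lower with scramble with no overlap. Gsr had 44.3, 42.5 and 44.3 FPKM with scramble, against 61.7, 61.1 and 61.9 FPKM in the libraries labelled Hepa1-6 shLucif (-0.49, SE 0.032, limma adjusted p = 1.43e-05). Keap1 had 7.998, 8.95 and 7.142 FPKM with scramble, against 10.7, 9.54 and 10.1 FPKM in the libraries labelled Hepa1-6 shLucif (-0.30, SE 0.083, limma adjusted p = 0.0153). These were lower too, though the Keap1 call was lost without Hepa1-6 shLucif library 1 (limma adjusted p = 0.0501).

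Hmox1 had 46.6, 45.8 and 47.7 FPKM with scramble, against 26.6, 28.9 and 32.2 FPKM in the libraries labelled Hepa1-6 shLucif (log2 fold change 0.66, SE 0.067, limma adjusted p = 0.000129). Mgst1 had 8.86, 7.63 and 6.62 FPKM with scramble, against 3.37, 2.22 and 3.24 FPKM in the libraries labelled Hepa1-6 shLucif (1.15, SE 0.144, limma adjusted p = 0.000373). Both were higher with scramble with no overlap. Gclc had 26.8, 28.0 and 28.0 FPKM with scramble, against 25.9, 26.4 and 25.5 FPKM in the libraries labelled Hepa1-6 shLucif, and missed the threshold (0.09, 95% interval 0.00 to 0.17, limma adjusted p = 0.0647). Txnrd1 had 37.9, 36.4 and 39.7 FPKM with scramble, against 37.0, 39.5 and 39.0 FPKM in the libraries labelled Hepa1-6 shLucif (-0.02, 95% interval -0.12 to 0.09). Gclm had 17.89, 20.97 and 13.77 FPKM with scramble, against 15.6, 19.7 and 14.4 FPKM in the libraries labelled Hepa1-6 shLucif (0.07, 95% interval -0.33 to 0.47). The groups overlapped in both. Nfe2l2 had 49.6, 49.4 and 51.1 FPKM with scramble, against 51.1, 54.3 and 54.0 FPKM in the libraries labelled Hepa1-6 shLucif. Its log2 difference of -0.08 had a limma adjusted p of 0.0814, and it passed without Hepa1-6 shLucif library 1 (-0.11, limma adjusted p = 0.0298).

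Of the other lists in Hepa1-6, glutathione genes gave 7 higher and 7 lower of 14 tested with scramble, and conjugation genes 5 and 3 of 8 tested. Of these conjugation genes, Aldh3a1 passed the filter on low values only through the libraries labelled Hepa1-6 shLucif, so it was bound to be lower with scramble. NADPH supply gave 3 and 3 of 6, and NRF2 partners 3 and 1 of 10. Thioredoxin and peroxiredoxin genes gave 1 higher and 5 lower of 11, heme and iron genes 1 and 2 of 7, and superoxide and peroxide enzymes 1 and 1 of 3. Their medians lay between -0.08 (heme and iron, rounded from -0.085) and 0.82 (conjugation), beside -0.04 over all genes.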

How the data were processed

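The 10 members and the gene lists were chosen with earlier results of these data known. The authors deposited FPKM, 1 table per experiment, for 55335 genes. Per the labels' protocols, TRIzol RNA was sequenced in read pairs and trimmed with Skewer, with a SMARTer kit for some samples. The submitters' processing notes name GRCm38, and edgeR, DESeq2, STAR and HISAT2 as tools; which one gave the FPKM is not given in the sources used here. Of 51 value columns, 30 matched a label or a labelled group, and 21 matched none and were not used. Column names, not table names, decided which experiment a table holds, because the table names are exchanged.

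Differences were tested with limma 3.58.1 (R 4.3.3, trended prior variance) on log2(FPKM + 1). A gene was tested where 3 or more libraries of its model reached 1 FPKM. The pseudocount of 1 understates fold changes of low genes. Tests were two-sided, and calls needed an adjusted p (Benjamini-Hochberg, all genes tested) under 0.05. CT26 and Hepa1-6 had their own models, except for comparisons of the lines. The test was run on simulated data with independent normal noise and 200 changed genes. Those data hold no odd single libraries, so this run does not bear on calls that hang on 1 library. Library steps for relative depth were read under 0.05 FPKM within 0.01 log2 units. Gene positions are from GENCODE release M21 on GRCm38. Batch date, as labelled, is shared by all libraries of an experiment and does not vary within any comparison tested. The 10 members were always named. From each other list and comparison at most the 3 called genes with the largest change were named, and the 3 genes most correlated with Nqo1. Exceptions are Me1 and Fth1 on the mean of the hairpins, the lower genes of their lists, which were named besides these. Alternatives were another pseudocount, other filters, quantile normalization, a replicate block, 1 model per table and leaving out each library.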

Additional observations from a re-analysis of the deposited data

How the results depend on the processing

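Of 1466 values of single members under alternatives, 1411 kept their direction and side of the threshold, 14 lost the call, 13 gained it, and 28 changed sign, none of these called in either setting. With quantile normalization the sign changed for Txnrd1 with stk in Hepa1-6 (0.003), Keap1 with sh2 (-0.025) and Keap1 with sh3 against sh1 and sh2 (-0.001). Leaving out 1 library changed it within these ranges: with stk in CT26, Gclc -0.013 to 0.09, Keap1 -0.067 to 0.066, Nfe2l2 -0.011 to 0.049 and Srxn1 -0.544 to 0.046; with stk in Hepa1-6, Gclc -0.01 to 0.033 and Gclm -0.029 to 0.555; for the difference of the responses, Gclc -0.032 to 0.071 and Gclm -0.47 to 0.113. Between the DMSO lines Gclm ran from -0.074 to 0.509. With sh1, Gclm ran from -0.52 to 0.16; with sh2, Keap1 from -0.03 to 0.052 and Nfe2l2 from -0.01 to 0.034; with sh3 against sh1 and sh2, Srxn1 from -0.194 to 0.486. With scramble, Gclm ran from -0.059 to 0.227 and Txnrd1 from -0.048 to 0.013.

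Counts over all genes with stk were the least stable. In CT26 the 85 calls became 14 with no filter, 133 with a minimum of 5 FPKM, 4 with the replicate block and 204 with all libraries in 1 model. In Hepa1-6 the 175 calls became 4, 473, 4 and 928 under the same settings, and members called went to 1 (Keap1) with a minimum of 5 FPKM and 1 with all libraries in 1 model. The 39 calls on the difference of the responses became 11 with the replicate block. Quantile normalization moved the share of higher calls with stk in CT26 to 30.2%, beside 17.6%. The cause was not tested.

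Leaving out 1 library gave 2 to 92 calls with stk in CT26 (2 without DMSO library 2), 8 to 59 in Hepa1-6 and 7 to 28 for the difference, with 0 members called in each. It gave 9465 to 9853 calls and 8 to 9 members between the DMSO lines. For hairpins it gave 3720 to 4503 calls and 3 to 4 members (sh1), 3775 to 4716 and 4 (sh2), 5396 to 6315 and 3 to 5 (sh3), 4122 to 5157 and 3 to 5 (mean), and 6171 to 7061 and 4 to 6 (sh3 against sh1 and sh2). Scramble gave 7030 to 7242 and 6.

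Replicate numbers did not pair the libraries, since same-numbered libraries correlated between -0.0497 and 0.105. The block left sh1 out, because its columns do not single out 1 labelled sample, and with it Gclm passed with sh3 (adjusted p = 0.0385). Relative depth was lowest in library 1 of those labelled Hepa1-6 shLucif.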

Other observations

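The level of several members stood apart between the control libraries of CT26 in the separately normalised tables. Srxn1 averaged 44.7 ± 1.48 FPKM with DMSO and 12.0 ± 4.80 FPKM with shLucif, Gsr 36.24 ± 1.125 FPKM with DMSO and 16.2 ± 0.853 FPKM with shLucif, and Gclm 13.3 ± 1.31 FPKM with DMSO and 5.99 ± 0.842 FPKM with shLucif (SD, n = 3 each). Nfe2l2 averaged 48.85 ± 0.616 FPKM with DMSO and 56.75 ± 1.41 FPKM with shLucif. These levels were not tested against each other. Treatment, time (48 hours with DMSO, 24 hours after seeding with shLucif), line history and batch date differ between them.

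In the libraries labelled Hepa1-6 shLucif, 6 members lay within or between the ranges of Hepa1-6 scramble and CT26 shLucif, and 4 lay outside both. The share of all genes in these positions was not computed, so the counts say nothing particular to the members. Gsr averaged 43.7 FPKM with Hepa1-6 scramble and 16.2 FPKM with CT26 shLucif, and lay above both in those libraries, at 61.1 to 61.9 FPKM. Srxn1 (21.4 to 27.4 FPKM) and Keap1 (9.54 to 10.7 FPKM) were above both as well, and Hmox1 (26.6 to 32.2 FPKM) was below both. Aldh3a1, an aldehyde dehydrogenase gene, was at 0.15 ± 0.0671 FPKM with Hepa1-6 scramble, 9.32 ± 0.592 FPKM in the libraries labelled Hepa1-6 shLucif and 3.08 ± 0.414 FPKM with CT26 shLucif (SD, n = 3 each).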
